A study of Oryza sativa with 4 samples.

Results

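The genes described here are 10 cytokinin genes of rice (Oryza sativa, cultivar Nipponbare): the type-A response regulators RR1, RR2, RR3, RR4, RR5, RR6, RR9 and RR10, and the cytokinin oxidase genes CKX2 and CKX4. They were picked by their MSU locus, taking every non-control spot whose probe name, without its last dot and number, was one of the 10 loci. This gave 11 of the 55078 probes on the array and 10 of its 52795 loci. RR9 had 2 probes, the RR2 probe was printed at 15 spots, and each other member had 1 probe at 1 spot. Transcript levels were measured in whole seedlings of transgenic line 40 (n = 2 arrays) and of the untransformed Nipponbare wild type (n = 2 arrays). Line 40, in the same cultivar, overexpresses LOC_Os02g43330 (HOX24), a class I homeodomain-leucine zipper transcription factor. All plants were 14 days old and came from soil pots in a greenhouse with natural light and temperature, with no treatment of either group. The replicates are biological, per the study's design. Line 40 was the only transgenic line and the promoter of its transgene is not given in the sources used here, so the differences are those of line 40.

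Cytokinins are adenine-derived hormones that promote cell division and shoot growth, restrain root growth and delay leaf senescence. Histidine kinase receptors sense them and pass a phosphate through phosphotransfer proteins to the type-B response regulators, which are transcription factors. These switch on the type-A genes, whose products lack a DNA-binding output domain and damp the same signal, so that type-A transcripts are widely used as reporters of cytokinin response. Cytokinin oxidases remove the side chain of the hormone and so inactivate it, and several of their genes are themselves induced by cytokinin.

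The targeted gene was measured first. HOX24 lay at normalized log2 signals of 9.15 and 9.35 in line 40, against 1.98 and 2.12 in the wild type, a difference of 7.20 (SE 0.16, limma adjusted p = 0.00105). Normalized log2 signal here means log2 of the spot's processed signal minus the 75th percentile of that array. Over all 36900 tested loci, 343 were higher (0.93%) and 423 lower (1.15%) in line 40 at an adjusted p under 0.05, which is 2.08% of those tested, and the median difference was -0.06. Of the 423 lower loci, 270 lay among the 3690 dimmest tested loci. The split of higher and lower loci was 764 and 335 with normexp background correction, 240 and 152 with quantile normalization, and 1485 and 1250 with median scaling. With only probes well above background on all 4 arrays, the split was 332 and 172. Without wild type replicate 1 the count was 399 loci, and without wild type replicate 2 it was 1802. The probes stood for a mixed organ sample: all 8 leaf markers and all 9 root markers were well above background on all 4 arrays. In whole seedlings, fewer cells of a type and less RNA per cell cannot be told apart. The summed scaled signal of the leaf markers was 3044 and 3122 in line 40, against 2749 and 2390 in the wild type, and that of the root markers was 220 and 207 in line 40, against 134 and 155 in the wild type. Of the leaf markers 4 of 8 rose (by 1.12 to 1.44 on the log2 scale, RBCS and LHCB most, at 1.44 and 1.38). The brightest leaf markers, RCA and CAB2R, held most of the leaf sum and lay at 0.09 and 0.18 (limma adjusted p = 0.762 and 0.515). The root sum does not stand for root markers as a class: RCC3 and PIP2-5 made up 90.5% to 93.6% of it on every array. Of the 9 markers 4 lay above 0 and 5 below (median -0.10). AMT1-2 lay lowest, at -1.36, and PIP2-3 and PIP2-5 highest, at 1.19 and 1.14. Of the root markers 0 of 9 passed in limma, with 4 at an unadjusted p under 0.05, of which 3 lay higher and 1 lower. Of the 4 markers of meristem and dividing cells 0 passed, with 2 at that level, PCNA (0.46) and CYCB2-1 (0.51). At that level 10% of all tested loci were higher and 14.8% lower in line 40. The summed scaled signal of the markers of meristem and dividing cells was 7.62 and 6.62 in line 40, against 5.37 and 5.69 in the wild type. Of these 4 markers, 3 were well above background on all 4 arrays. The part of these marker levels in the results below was not tested.

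RR2, RR3, RR4 and CKX4 lay 1.80-fold to 2.03-fold higher in line 40 than in the wild type, with no overlap between the groups. They missed the 0.05 threshold, at limma adjusted p from 0.0536 to 0.0722. RR9 lay 1.43-fold higher, RR1, RR6 and RR10 overlapped between the groups, and RR5 and CKX2 were not well above background on any array. In limma with Benjamini-Hochberg adjustment over all tested loci, 0 of the 8 tested members passed 0.05, against 2.08% of all loci. At an unadjusted p under 0.05 there were 5 (RR2, RR3, RR4, RR9 and CKX4), all higher in line 40, where 10% of all tested loci were higher and 14.8% lower at that level. The same 5 were the members whose line 40 arrays both lay above both wild type arrays, which was so for 25.1% of all loci. No member lay below without overlap, against 34.3% of all loci. These shares of all loci include dim loci. With the loci cut into 10 bins by mean signal, the median difference was -0.50 in the dimmest bin, which holds RR6. It was -0.08 to 0.04 in the bins of the other tested members. The median difference of the 7 tested type-A members was 0.52, or 0.33 without line 40 replicate 2 and 0.24 when both RR9 probes were averaged. All 8 tested members were well above background on all 4 arrays, so none entered through the brighter group alone.

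**Figure D1:**
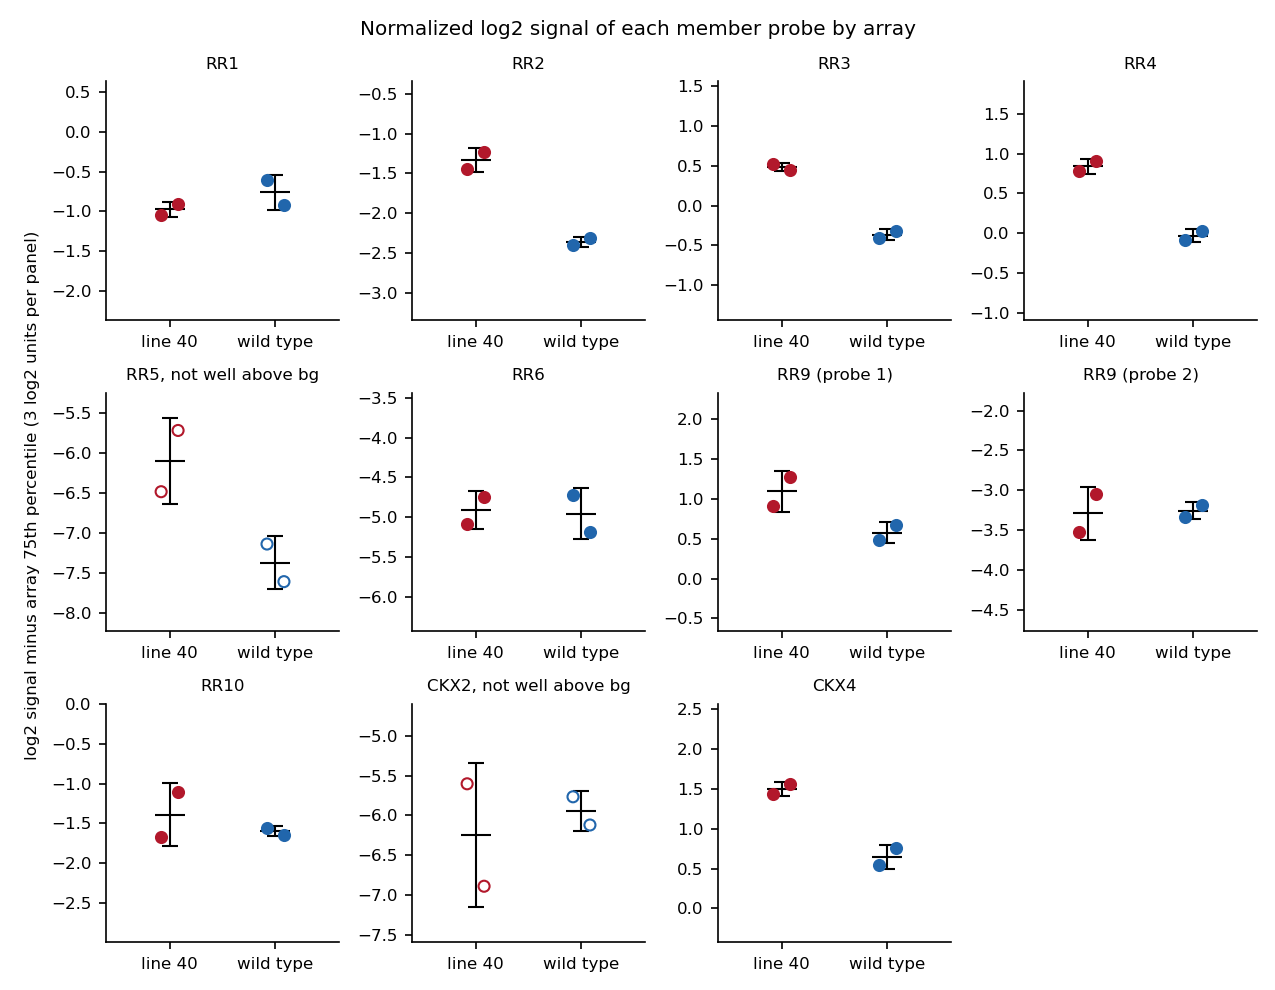
Normalized log2 signal (vertical axis, log2 signal minus the 75th percentile of the array) of each of the 11 member probes on the line 40 arrays (red, left) and the wild type arrays (blue, right), with the mean and SD of 2 arrays in black. Each panel spans 3 log2 units, and open symbols mark probes not well above background; RR2, RR3, RR4 and CKX4 show wide gaps between the groups and RR1, RR6 and RR10 overlap.

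RR2 had the largest difference of the tested members and the most spots. RR2 (LOC_Os02g35180, chromosome 2) encodes a type-A regulator known as a target of WOX11, a transcription factor of crown root growth. Averaged over its 15 spots, the processed signal of RR2 was 149 and 184 on the line 40 arrays, against 69.3 and 98.1 on the wild type arrays. After scaling this was -1.33 ± 0.15 in line 40 and -2.36 ± 0.06 in the wild type (SD, n = 2 each, log2), a difference of 1.02 (SE 0.16, interval of 95% from 0.62 to 1.43). Both line 40 arrays were above both wild type arrays even before scaling. The limma adjusted p for RR2 was 0.0536: its unadjusted p was 0.00136, and the largest unadjusted p that passed was 0.00104.

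The spots of the RR2 probe show how far 1 array can be trusted for a gene of this brightness. In line 40 they ranged from -1.60 to -1.29 (median -1.45) on replicate 1 and from -1.50 to -1.04 (median -1.20) on replicate 2. In the wild type they ranged from -2.58 to -2.08 (median -2.41) on replicate 1 and from -2.68 to -2.17 (median -2.31) on replicate 2, all in normalized log2 signal. Every line 40 spot was brighter than every wild type spot. The SD between spots of 1 array was 0.0862 and 0.127 in line 40 and 0.139 and 0.125 in the wild type. Spots of 1 array share 1 RNA sample, so they measure the array and not the plants.

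**Figure D2:**
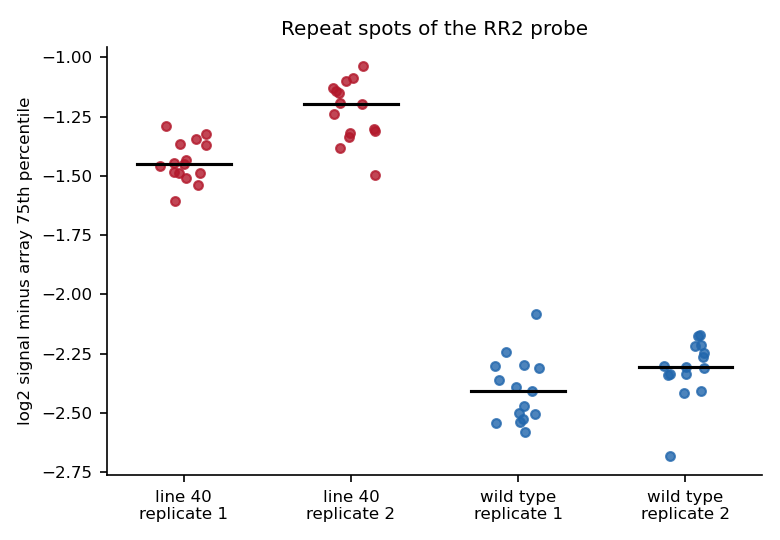
The 15 repeat spots of the RR2 probe on each array, with line 40 (red) left of the wild type (blue), the normalized log2 signal on the vertical axis, and a black line at each median. The lowest line 40 spot lies at -1.60 and the highest wild type spot at -2.08.

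RR3 and RR4 followed RR2 closely. RR4 (LOC_Os01g72330, chromosome 1) had processed signals of 691 and 808 in line 40, against 345 and 498 in the wild type. Its normalized log2 signal was 0.84 ± 0.09 in line 40 and -0.03 ± 0.08 in the wild type (SD, n = 2 each). That is a difference of 0.87 (SE 0.15, interval 0.48 to 1.26, limma adjusted p = 0.0640), or 1.83-fold. The gap between the groups was several times the spread between arrays of either group.

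RR3 (LOC_Os02g58350, chromosome 2) had processed signals of 578 and 586 in line 40, against 276 and 391 in the wild type. Its normalized log2 signal was 0.48 ± 0.05 in line 40 and -0.36 ± 0.06 in the wild type (SD, n = 2 each). The difference was 0.85 (SE 0.15, interval 0.47 to 1.22, limma adjusted p = 0.0635), or 1.80-fold. The gap between the groups was again far wider than the spread within either. The locus next to RR3, LOC_Os02g58360, lay 1.08 higher in line 40 (SE 0.20, limma adjusted p = 0.0689). In contrast, LOC_Os02g58330 and LOC_Os02g58370 lay at -1.96 and -1.16 (SE 0.72 and 0.36, adjusted p = 0.187 and 0.147). The wild type arrays of LOC_Os02g58330 differed widely (SD 1.57). LOC_Os02g58370 was dim, at a mean normalized log2 signal of -4.75 in line 40 and -3.59 in the wild type.

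RR9 and RR10 are close copies of each other on the duplicated ends of chromosomes 11 and 12, and are known as negative regulators of salt tolerance. Probe sequences were not used here, so how far their probes cross-hybridise was not tested. The brighter RR9 probe (LOC_Os11g04720, probe ending in 1) had processed signals of 760 and 1044 in line 40, against 512 and 780 in the wild type. Scaled, RR9 was 1.10 ± 0.26 in line 40 and 0.58 ± 0.14 in the wild type (SD, n = 2 each), a difference of 0.52 (SE 0.19, interval 0.02 to 1.01, limma adjusted p = 0.190). Before scaling, the lower line 40 array of RR9 lay below the higher wild type array, and after scaling the groups separated.

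The second RR9 probe (ending in 2) did not show this. Its processed signals were 35.1 and 51.9 in line 40, against 36.4 and 53.8 in the wild type, a difference of -0.03 (SE 0.21, adjusted p = 0.944 in the limma fit on single probes, which called 2.07% of all probes). The gap between both RR9 probes on 1 array was 4.43 and 4.33 in line 40, against 3.82 and 3.86 in the wild type, in log2 units. These gaps did not overlap, and their difference of 0.55 had a p of 0.333 in a two-sided exact permutation test, the smallest that 2 arrays against 2 allow. RR10 (LOC_Os12g04500) had processed signals of 127 and 200 in line 40, against 125 and 157 in the wild type, and a difference of 0.21 (SE 0.23, interval -0.38 to 0.80, adjusted p = 0.609). The line 40 arrays of RR10, at -1.67 and -1.11, lay on either side of the wild type arrays, at -1.55 and -1.64.

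RR1 was the only tested member below 0, and its groups overlapped. RR1 (LOC_Os04g36070) encodes a type-A regulator known as a target of CRL5, an AP2 transcription factor of crown root initiation. Its processed signals were 196 and 229 in line 40, against 241 and 258 in the wild type. The difference was -0.21 (SE 0.18, interval -0.67 to 0.24, limma adjusted p = 0.494). The upper end of the RR1 interval lies below the lower ends of the intervals of RR2, RR3, RR4 and CKX4; the difference between members was not tested.

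RR6 (LOC_Os04g57720), whose overexpression is known to lower the cytokinin sensitivity of rice, was measured near background. Its processed signals were 11.9 and 16.1 in line 40, against 13.9 and 13.4 in the wild type, where the lowest signals well above background on the 4 arrays were 9.97 to 10.9. The difference of RR6 was 0.04 (SE 0.23, interval -0.55 to 0.63, limma adjusted p = 0.930), and 0.43 with quantile normalization. Among the 3690 dimmest tested loci, which hold RR6, the median difference was -0.50. The interval leaves room for a change of about the size seen in RR9. RR5 (LOC_Os04g44280) had processed signals of 4.51 and 8.21 in line 40, against 2.60 and 2.50 in the wild type, and was not well above background on any array. No fold is given for RR5 and it was not tested; without the filter on dim probes its limma adjusted p was 0.198.

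Of CKX4 and CKX2, only CKX4 was well above background. CKX4 (LOC_Os01g71310, chromosome 1) is known as a promoter of crown root formation in rice. Its processed signals were 1093 and 1268 in line 40, against 534 and 824 in the wild type. Its normalized log2 signal was 1.50 ± 0.09 in line 40 and 0.65 ± 0.15 in the wild type (SD, n = 2 each). The difference of CKX4 was 0.85 (SE 0.16, interval 0.43 to 1.26, limma adjusted p = 0.0722), or 1.80-fold. Both line 40 arrays lay above both wild type arrays, before and after scaling.

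CKX2 (LOC_Os01g10110), the gene of the grain number locus Gn1a, which acts in the panicle, was not well above background on any array. Its processed signals were 8.31 and 3.63 in line 40, against 6.74 and 7.02 in the wild type, so that no difference could be measured in these seedlings. Without the filter on dim probes, its limma adjusted p was 0.802.

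**Figure D3:**
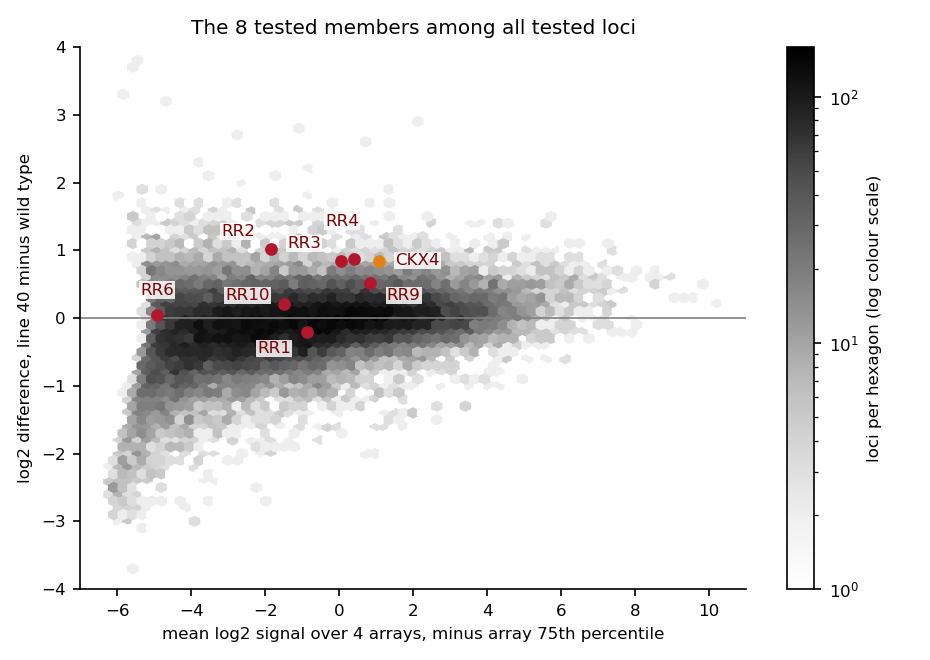
Log2 difference, line 40 minus wild type (vertical axis), against the mean normalized log2 signal over 4 arrays (horizontal axis) for all 36900 tested loci, shaded by loci per hexagon on a log colour scale, with the 8 tested members as dots (red for type-A regulators, orange for CKX4). RR2, RR3, RR4 and CKX4 lie between 0.85 and 1.02, above 96.8% to 97.9% of tested loci. Outside the axes lie 33 loci.

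Set among all tested loci, the differences of RR2, CKX4, RR3 and RR4 were larger than those of 97.9%, 96.8%, 96.8% and 97.0% of loci. RR9 stood at 91.2%, RR10 at 75.7%, RR6 at 60.5% and RR1 at 36.0%. When the loci were ordered by mean signal and cut into 10 bins of 3690, RR2, RR10, RR1, RR3, RR4, RR9 and CKX4 all lay in bins 5 to 8, where 1.06% to 1.49% of loci passed the test. The 3 tested loci whose pattern was most like the mean of the tested type-A members were LOC_Os03g54170, LOC_Os04g40970 and LOC_Os12g31410. Likeness was the Euclidean distance between log2 values centred per locus over the 4 arrays, and it was 0.0246, 0.0267 and 0.0308. RR9, the nearest member, lay at 0.200 and RR1, the farthest, at 0.711, but the 3 loci were chosen as the nearest of all, so their distances are not comparable with those of the members.

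By position, the members are spread over chromosomes 1, 2, 4, 11 and 12. Among the 2 tested loci on either side of each tested member by locus number, 32 in all, 0 passed the limma test, against 2.08% of all loci. Their differences ran from -1.96 (SE 0.72) to 1.08 (SE 0.20). The neighbours of RR2 and RR4 lay between -0.10 and 0.38, well below the members themselves. Of the neighbours of CKX4, LOC_Os01g71330 was highest, at 0.63 (SE 0.17, limma adjusted p = 0.122).

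The rest of the pathway was followed through 50 other cytokinin loci on the array, of which 39 were tested. By the same limma test 1 rose and 0 fell, against 2.08% of all loci called in either direction. At an unadjusted p under 0.05 in limma there were 9 of the 39, where 10% of all tested loci were higher and 14.8% lower. These shares also stand beside the counts at that level in each list below. The median difference of the 39 was -0.06, equal to that of all loci. Among the 39, 9 were higher in line 40 without overlap and 12 lower, against 25.1% and 34.3% of all tested loci.

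The gene that rose was cZOGT2 (LOC_Os04g46990), which encodes a glucosyltransferase that stores cis-zeatin as an O-glucoside. Its processed signals were 1077 and 1407 in line 40, against 382 and 598 in the wild type. Scaled, cZOGT2 was 1.56 ± 0.21 in line 40 and 0.18 ± 0.16 in the wild type (SD, n = 2 each), a difference of 1.39 (SE 0.18, interval 0.91 to 1.86, limma adjusted p = 0.0426), or 2.61-fold. The call was lost when any 1 array was left out (adjusted p 0.0570 to 0.148), after quantile normalization (0.0585) and without the filter on dim probes (0.0925). The neighbouring cZOGT1 (LOC_Os04g46980), a close homologue of cZOGT2, lay at 0.23 (SE 0.17, adjusted p = 0.445) in line 40 against the wild type. CYP735A3 and CYP735A4, hydroxylases that make trans-zeatin precursors, lay at -0.44 (adjusted p = 0.520) and 0.08 (adjusted p = 0.838), with no stable direction. CYP735A3 lay at 0.13 without line 40 replicate 1 and at -1.01 without line 40 replicate 2, and CYP735A4 at -0.15 without wild type replicate 2. The CYP735A3 probe was not well above background on line 40 replicate 1. Its processed signal there was 8.42, against 15.5 to 20.2 on the other arrays.

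Among the remaining type-A regulators, RR7 and RR11 were tested and both lay above 0. RR7 lay at 0.61 (SE 0.16, limma adjusted p = 0.117), and its 2 probes gave 0.64 and 0.61. RR11 lay at 0.34 (SE 0.15, adjusted p = 0.235). RR8, RR12 and RR13 were not well above background on any array and were not tested. Counting members and these together, 8 of the 9 tested type-A genes lay above 0, against 43.7% of all tested loci. The count was 6 of 9 without line 40 replicate 2, where RR6 and RR10 lay at -0.13 and -0.07, and 7 of 9 without wild type replicate 2, where RR6 lay at -0.19. In limma 0 of the 9 passed, with 5 at an unadjusted p under 0.05.

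The other 6 tested oxidase genes lay below 0 as reported (median -0.19), but only 3 to 6 of the 6 did so over the 12 other settings, and CKX10 lay at 0.31 without wild type replicate 1. The count of 3 came from median scaling, which adds the same 0.15 to every locus. Relative to the median of all loci, 5 of the 6 lay below under both scalings. In limma 0 of the 6 passed, with 1 at an unadjusted p under 0.05. That one was CKX9 (LOC_Os05g31040), known as a gene induced by strigolactone in rice. CKX9 had processed signals of 172 and 154 in line 40, against 268 and 413 in the wild type, a difference of -1.01 (SE 0.18, interval -1.46 to -0.56, adjusted p = 0.0640). Its line 40 arrays both lay below its wild type arrays. CKX8 lay at -0.44 (adjusted p = 0.211) and CKX5 at -0.24 (adjusted p = 0.476). The intervals of CKX4 and CKX9 do not overlap; the difference between genes was not tested.

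Hormone synthesis showed no common direction. The isopentenyltransferases, which make the first step, had 4 of 8 tested members above 0 (median -0.15), and 2 to 5 over the other settings. IPT4 lay at 0.07 with quantile normalization, and IPT5 and IPT8 lay at -0.22 and -0.12 without wild type replicate 2. In limma 0 of the 8 passed, with 3 at an unadjusted p under 0.05. IPT7 was highest at 0.90 (SE 0.20, adjusted p = 0.0914), with processed signals of 82.4 and 101 in line 40 against 37.6 and 65.6 in the wild type. Over the 12 other settings the IPT7 difference ran from 0.45, with normexp, to 1.09. IPT10, which acts on tRNA, lay at 0.46 (adjusted p = 0.151) and IPT9, also of the tRNA type, at -0.41 (adjusted p = 0.195). The lowest was IPT3 at -1.18 (SE 0.49, adjusted p = 0.223), and there the wild type arrays differed most, at 0.54 and -0.87, against -1.59 and -1.10 in line 40.

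The LOG enzymes, which release the active base from its nucleotide, had 4 of 7 tested members above 0 (median 0.24), or 5 with median scaling or without wild type replicate 1, where LOGL7 turned. In limma 0 of the 7 passed, with 1 at an unadjusted p under 0.05. LOGL8 lay at -0.76 (SE 0.19, limma adjusted p = 0.108), LOGL9 at 0.42 (adjusted p = 0.211) and LOGL6 at 0.52 (SE 0.31, adjusted p = 0.345). Both LOGL8 and LOGL6 were dim, with processed signals of 15.9 to 38.5 and 15.1 to 30.2 over the 4 arrays. With normexp, LOGL8 lay at -0.29 and LOGL6 at 0.11. LOG itself, first found as a gene that keeps the shoot meristem active, lay at 0.24 (SE 0.19, adjusted p = 0.483).

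In the signalling chain above the type-A genes, 0 of the 6 receptors and phosphotransfer proteins passed in limma, with 1 at an unadjusted p under 0.05. The receptors HK4 and HK6 lay at 0.02 and 0.01 (SE 0.14 and 0.15), with intervals from -0.35 to 0.38 and from -0.37 to 0.39. HK5 lay at -0.47 (SE 0.14, limma adjusted p = 0.140). Its second, dimmer probe lay at -0.33 (adjusted p = 0.253 in the limma fit on single probes). AHP1, a phosphotransfer protein, lay at 0.32 (SE 0.14, adjusted p = 0.249). AHP2, of the same family, lay at -0.11 (SE 0.15, adjusted p = 0.696). Of the type-B regulators, which act directly above the type-A genes, 5 of 6 tested lay below 0 (median -0.17), and 3 to 6 over the other settings. All 6 lay below 0 with normexp and with quantile normalization, and 3 of 6 without wild type replicate 2, where RR24 and RR26 lay at 0.13 and 0.02. In limma 0 of the 6 passed, with 1 at an unadjusted p under 0.05. RR21, RR22, RR23 and RR24 lay at 0.01, -0.18, -0.17 and -0.05, each within 2 SE of 0. EHD1, a type-B regulator known for promoting flowering, lay at -0.66 (SE 0.22, adjusted p = 0.168).

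**Figure D4:**
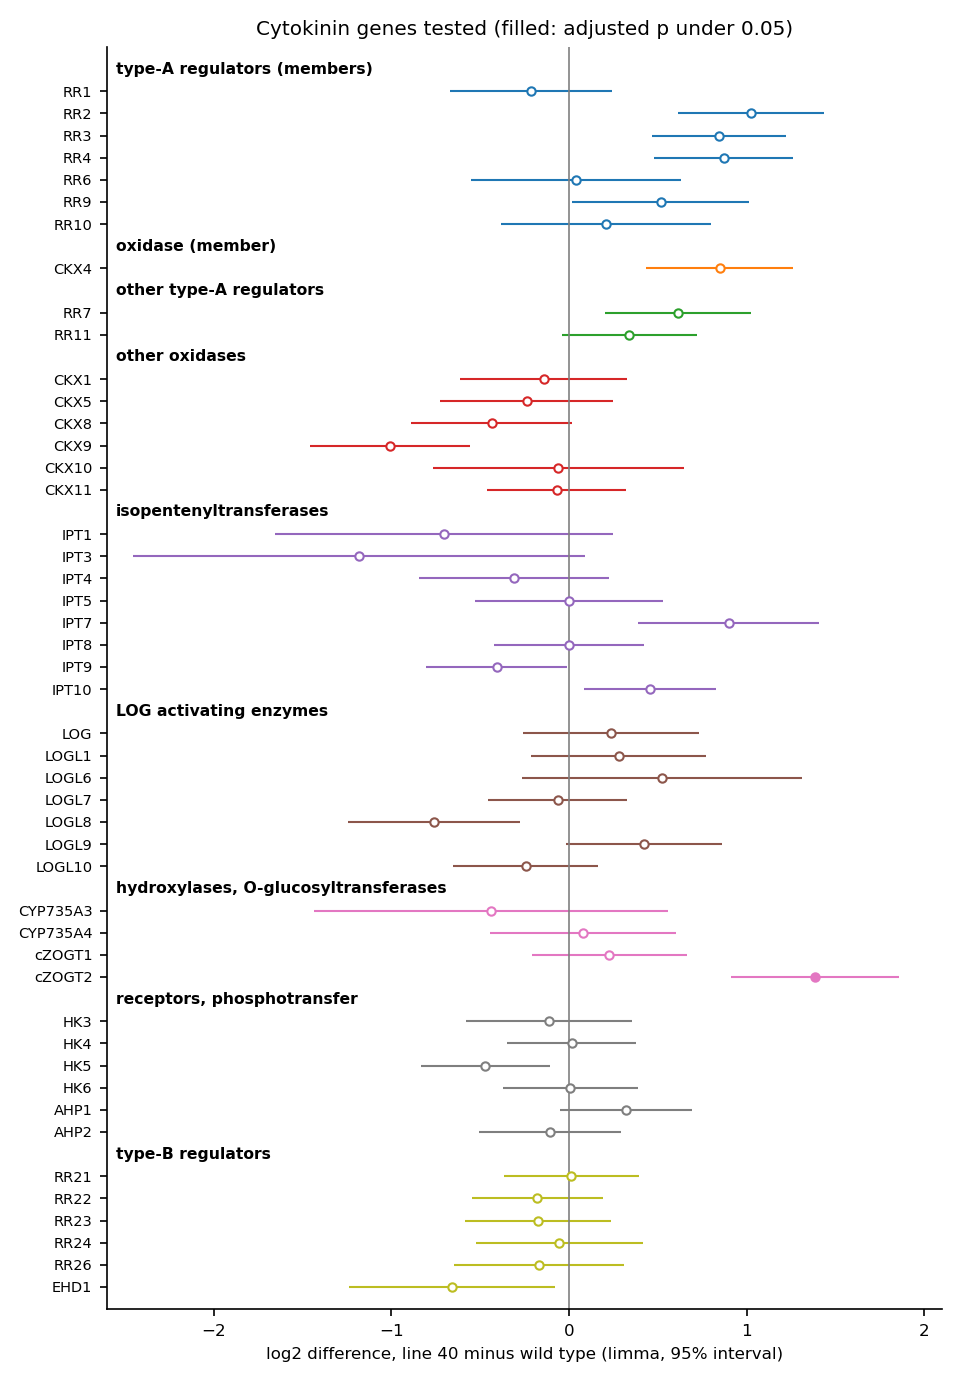
Log2 difference, line 40 minus wild type, with its 95% interval from limma (horizontal axis) for the 8 tested members and the 39 other tested cytokinin genes, grouped by role down the page. Filled points mark an adjusted p under 0.05, which only cZOGT2 reached. Intervals lie wholly above 0 for RR2, RR3, RR4, RR9, CKX4, RR7, IPT7, IPT10 and cZOGT2. Those of CKX9, IPT9, LOGL8, HK5 and EHD1 lie wholly below 0.

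Whether members passed depended on the processing. After normexp background correction RR2, RR3, RR4 and CKX4 passed, at 0.66, 0.71, 0.76 and 0.77 (limma adjusted p 0.0319 to 0.0496), where 2.98% of all loci were called. With median scaling the same genes passed, at 1.17, 0.99, 1.02 and 0.99 (adjusted p 0.0111 to 0.0261), where 7.41% of all loci were called and the median of all loci stood at 0.08. Relative to that median the RR2 difference was 1.09 under both scalings. No member passed when any 1 of the arrays was left out, and the 4 genes then lay between 0.74 and 1.13 (adjusted p 0.0701 to 0.281). Of all loci, 1.37% passed without line 40 replicate 1, 1.45% without line 40 replicate 2, 1.05% without wild type replicate 1 and 4.71% without wild type replicate 2. Nor did a member pass with quantile normalization (1.06% of all loci), without the filter on dim probes (0.0436%), with probes well above background on all 4 arrays (1.48%), with the mean over probes (2.13%), with uneven spots kept (2.03%) or with the replicate block (2.11%).

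**Figure D5:**
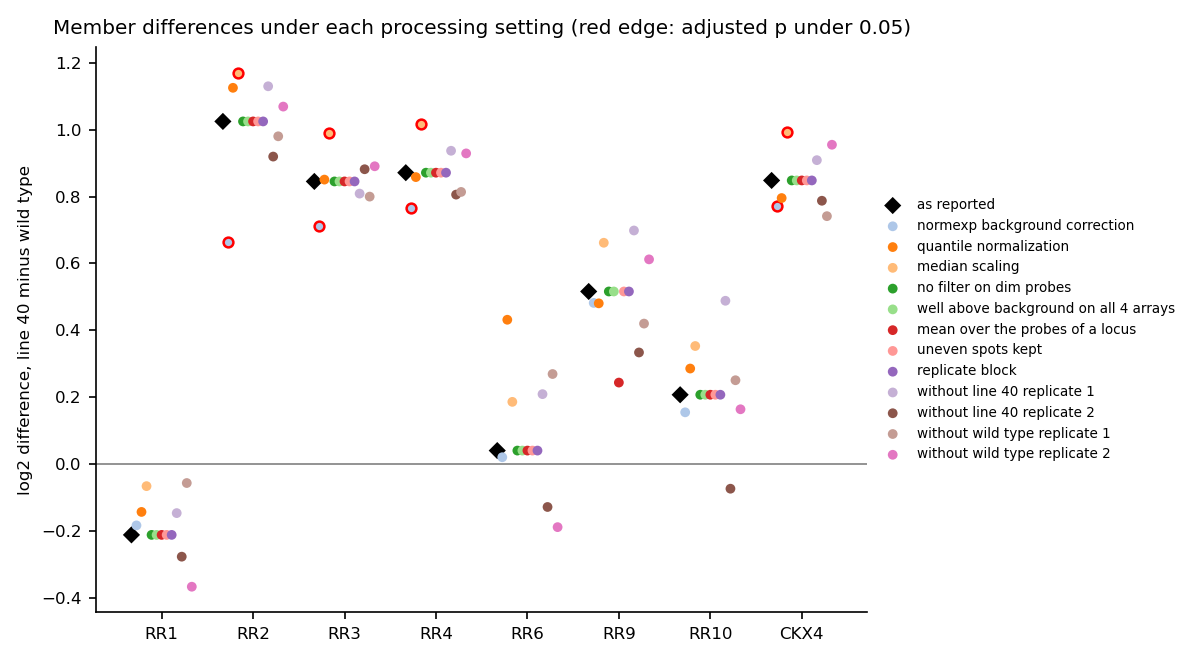
Log2 difference, line 40 minus wild type (vertical axis), of each tested member as reported (black diamond) and under 12 other processing settings (coloured dots); a red edge marks an adjusted p under 0.05. RR2, RR3, RR4 and CKX4 stay above 0.66 in every setting shown, and red edges appear with normexp and median scaling only.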

How the data were processed

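RNA of whole seedlings was hybridised to 4 Agilent custom 1-colour arrays (Cy3), per the labels, all on 1 slide with 1 scan time. The deposited intensity values were made by the authors with Agilent Feature Extraction 10.7.1.1, per the file headers, and the processed signal is background-subtracted with no scaling between arrays. The deposited value table equalled the processed signal of the scanner files (largest relative difference 0) and was not needed further.

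From the 62976 spots of each array, 1319 controls were removed, as were spots flagged uneven on any array (32 probes lost). The deposited processed signals were taken to log2 and the 75th percentile of each array was subtracted, which was 404 and 431 in line 40 and 367 and 488 in the wild type. Repeat spots were averaged. A probe was tested where both arrays of either group measured it well above background (36900 loci; 15895 loci had none), and a locus took its brightest probe on average. On each array 37482 to 39802 probes were well above background, and 2 arrays a group limit the precision. Differences were tested with limma 3.58.1 in R 4.3.3 (lmFit and eBayes, 2 residual and 2.96 prior degrees of freedom) with Benjamini-Hochberg adjustment over all tested loci at 0.05. The scripts were tested on simulated data. An interval is the 95% interval of limma, and a group gives mean ± SD.

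The alternatives were normexp (offset 50, on the median spot signal, since the files used hold no mean signal), quantile normalization, median scaling, 2 other filters on dim probes, the mean over probes, uneven spots kept, a replicate block and leaving out each array. Same-numbered arrays of the groups did not deviate together (correlation -0.07), so the numbers were not taken as pairs. The members, gene lists and tests were chosen with earlier results of these data known. Named genes are all members, the 3 loci most like the type-A mean and neighbouring loci. Of each other cytokinin list, those past the threshold and the 3 with the smallest adjusted p were taken, and of each marker list up to 3. HK4, HK6, IPT3, IPT4, IPT5, IPT8, CYP735A4, LOG, LOGL7, RR21, RR24, RR26, CKX10 and the markers RCA, CAB2R and PIP2-3 were added after their values were seen. Symbols were set by locus; 9 of the 10 members had a RefSeq entry on the same chromosome, and RR3 had none in the table used. The array design and that table are on different assemblies, so no coordinates are given.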

Additional observations from a re-analysis of the deposited data

How the results depend on the processing

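The count of members past the threshold, 0 as reported, was 4 with normexp background correction and 4 with median scaling, and 0 in the other 10 settings tried. Of the other cytokinin genes, 1 passed as reported, 2 with normexp (CKX9 added), 2 with median scaling (IPT7 added), 0 with quantile normalization, 0 without the filter on dim probes, and 0 with any 1 array left out. The 766 loci past the threshold became 392 with quantile normalization, 2735 with median scaling, 23 without the filter on dim probes, 504 with probes well above background on all 4 arrays, and 399 to 1802 with 1 array left out. The type-A median of 0.52 became 0.68 without the filter, where RR5 entered, 0.24 with the mean over probes, and 0.33 to 0.70 with 1 array left out. RR6 turned to -0.19 without wild type replicate 2 and to -0.13 without line 40 replicate 2, and RR10 to -0.07 without line 40 replicate 2; with 1 array left out, RR6 ranged from -0.189 to 0.269 and RR10 from -0.0744 to 0.488. The cause of these shifts was not tested. RR2, RR3, RR4, RR9 and CKX4 lay above 0, and RR1 below 0, in all 12 settings. With the replicate block, 778 loci and 0 members passed, the type-A median stayed at 0.52, and no call on a named cytokinin gene changed. With 1 array left out, the lone array of its group is assumed to vary like those of the other. Dim signal limits, among others, RR5, RR6, CKX2, LOGL6, LOGL8 and CYP735A3.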
